A study of Mus musculus with 16 samples.

Results

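The genes described here mark oligodendrocyte precursors, or the whole oligodendrocyte lineage from precursor to myelinating cell. They are Pdgfra, Cspg4, Olig1, Olig2, Sox10, Sox6, Vcan, Gpr17, Lhfpl3 and Matn4, 10 of the 53801 gene identifiers in the deposited count table, chosen by symbol. They were followed in the cortex of 16 C57BL/6 mice, with 1 library of 3' RNA tags per animal, in 3 groups. WT saline mice (n = 6, 3 males and 3 females, 12.2 to 12.93 months old) carried intact Grn, the progranulin gene, and received saline. KO saline mice (n = 5, 4 males and 1 female, 12 to 12.7 months) lacked Grn and received saline. KO AAV mice (n = 5, 3 males and 2 females, 12 to 12.7 months) lacked Grn and had been injected intravenously with 300000000000 vector genomes of AAV-8D3:PGRN, which makes human progranulin in liver, joined to an antibody fragment (8D3) that binds the mouse transferrin receptor. The recorded treatment duration was 8 months in every animal. Both knockout groups share the Grn deletion, and KO saline received no empty virus, so the effects of the virus and of its progranulin cannot be told apart. Grn had 226 counts over the WT saline libraries and 0 in each of the 10 knockout libraries, which places it at least 49.9-fold below WT saline in the untreated knockouts and at least 61.4-fold below it in the treated ones, with a floor of 3 counts per group.

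Oligodendrocyte precursors are the dividing glial cells that spread through grey and white matter and give rise to myelinating oligodendrocytes, in the adult brain as well as in development. Platelet-derived growth factor, acting on the receptor encoded by Pdgfra, keeps them proliferating, while Olig2 and Sox10 specify and maintain the lineage and Gpr17 marks the short stage at which a precursor commits to differentiate. Precursors are a small share of cortical cells, so their transcripts are thinly sampled in whole-tissue libraries. In whole tissue, fewer cells of a type and less RNA per cell cannot be told apart.

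All 10 genes were detected: 8 had counts in each of the 16 libraries, and Cspg4 and Matn4 had a count of 0 in 1 library each. Cspg4 was the member too low for the count filter, so 9 of the 10 were tested by edgeR among 10363 genes. No member passed an adjusted p of 0.05 in any of the 3 comparisons. The 10 neuronal markers, a check for neural tissue but not for the brain region, summed to between 8032 and 11972 CPM. Library totals ran from 1351974 to 2119019 counts, with KO saline lowest on average at 1497800 ± 162617 (SD, n = 5), and mitochondrial transcripts took 20.4 to 29.8% of the counts. Levels are given as CPM, counts set to a common library size after TMM scaling, and a log2 change with its SE is that of the edgeR fit.

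For 3 members that appear below in pairs that varied together or oppositely between animals, the 250 bases before the RefSeq transcription start (GRCm38.p6) are shown. What lies in front of each RefSeq start can thus be read beside the counts of the gene. Of the 10 members 7 matched the RefSeq promoter table, and Olig1, Sox10 and Gpr17 did not. Capitals mark CANNTG, the E-box to which basic helix-loop-helix factors such as Olig1 and Olig2 bind. The Pdgfra window is chr5:75152001-75152250 on the plus strand, the Olig2 window chr16:91225300-91225549 on the plus strand, and the Matn4 window chr2:164405161-164405410 on the minus strand, for the more upstream of its 2 listed starts. The GENCODE start of Olig2, 91225457, lies inside the Olig2 window, so the last bases shown fall within that annotated gene.
Pdgfra: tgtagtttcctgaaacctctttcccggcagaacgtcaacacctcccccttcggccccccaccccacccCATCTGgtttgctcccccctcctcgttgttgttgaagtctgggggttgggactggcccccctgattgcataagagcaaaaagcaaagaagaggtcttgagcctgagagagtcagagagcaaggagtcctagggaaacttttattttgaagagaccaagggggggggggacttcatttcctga
Olig2: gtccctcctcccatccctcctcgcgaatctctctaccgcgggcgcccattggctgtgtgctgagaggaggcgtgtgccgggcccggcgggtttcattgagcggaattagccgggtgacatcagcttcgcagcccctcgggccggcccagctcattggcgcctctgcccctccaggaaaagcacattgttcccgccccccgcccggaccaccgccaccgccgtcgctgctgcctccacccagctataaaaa
Matn4: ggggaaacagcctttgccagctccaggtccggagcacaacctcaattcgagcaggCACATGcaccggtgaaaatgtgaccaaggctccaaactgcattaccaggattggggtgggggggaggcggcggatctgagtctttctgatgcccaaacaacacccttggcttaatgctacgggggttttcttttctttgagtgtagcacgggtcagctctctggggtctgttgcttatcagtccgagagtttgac
The Pdgfra and Matn4 windows held 1 CANNTG match each and the Olig2 window 0, where 66.2% of all 32851 listed promoters hold at least 1 in the same length. The letters ACAAAG and ACAATG, which fit the core bound by Sox factors, were searched on both strands. ACAATG occurred 1 time in the Olig2 window and in 10.7% of all promoters. ACAAAG occurred in 0 of the 3 windows and in 16.5% of all promoters. A match is a description of the letters and not of binding.

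Pdgfra, the receptor for platelet-derived growth factor that defines adult precursors (ENSMUSG00000029231, chromosome 5, 75152292 to 75198215 in GRCm38, the build of all positions given here), varied more between animals than between groups. In WT saline its level ran from 12.2 to 33.2 CPM with a median of 21.4. In KO saline replicates 1 to 5 it stood at 7.26, 31.9, 10.04, 34.1 and 40.1 CPM. The KO AAV replicates were at 36.9, 31.6, 20.8, 18.0 and 21.2 CPM. KO saline replicates 1 and 3 were the lowest of all 16 libraries and KO saline replicate 5 the highest, so the saline-treated knockouts spanned the other groups entirely. Group means were 21.4 ± 7.28 CPM in WT saline (SD, n = 6), 24.7 ± 14.99 in KO saline (n = 5) and 25.7 ± 8.13 in KO AAV (n = 5). The log2 change was 0.24 (SE 0.33; edgeR adjusted p = 0.994) for KO saline against WT saline and 0.03 (SE 0.34; adjusted p = 1.00) for KO AAV against KO saline. The 95% interval of the latter, from -0.68 to 0.73, leaves room for a change in either direction. The biological coefficient of variation of Pdgfra was 0.353, against a median of 0.163 over all tested genes.

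Pdgfra is also a gene of meningeal and perivascular fibroblasts. Of 11 fibroblast and vascular leptomeningeal markers 3 could be tested and 0 passed. The summed level of that list ran from 270 to 550 CPM in WT saline, 404 to 654 in KO saline and 337 to 464 in KO AAV, and Igf2 was at 0 in each library. Ptgds, which other brain cells also express, made up most of it, at 387 CPM of a mean sum of 420 in WT saline. Its part in the Pdgfra values was not tested.

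Cspg4, the NG2 proteoglycan of precursors and of pericytes (ENSMUSG00000032911, chromosome 9, 56865033 to 56899870), was the 1 member whose KO saline and WT saline libraries did not overlap. It had 5, 5, 5, 5, 6 and 9 counts in WT saline replicates 1 to 6, which is 2.65 to 4.16 CPM with a median of 2.93. KO saline replicates 1 to 5 had 3, 3, 0, 1 and 4 counts, or at most 2.47 CPM. The KO AAV libraries had 4, 15, 9, 6 and 3 counts, or 1.87 to 8.47 CPM, and overlapped both saline groups. Each of the 5 KO saline libraries therefore lay below each of the 6 WT saline libraries although 4 counts in the highest knockout and 5 in the lowest WT library set them apart.

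Mean Cspg4 levels were 3.19 ± 0.606 CPM in WT saline (SD, n = 6), 1.54 ± 1.16 in KO saline (n = 5) and 4.13 ± 2.69 in KO AAV (n = 5). The two-sided exact permutation p was 0.0022 for KO saline against WT saline, the smallest that 5 against 6 allows, 0.0794 between the 2 knockout groups and 0.513 for KO AAV against WT saline, without adjustment. In an edgeR fit with no count filter, over 24497 genes, the log2 changes of Cspg4 were -1.07 (SE 0.54; unadjusted p = 0.0470, adjusted p = 0.787), 1.44 (SE 0.53; unadjusted p = 0.00698, adjusted p = 0.836) and 0.37 (SE 0.42; adjusted p = 0.837) in the same order. That fit called 0.0653%, 0.0163% and 0.00816% of all genes, and 4.8%, 3.14% and 5.26% had an unadjusted p under 0.05. Libraries of KO saline lay wholly below WT saline for 0.114% of those genes. Among the 1914 genes with a summed count within 1.5 times that of Cspg4 the share was 0.313%. The pooled counts, 11 in KO saline and 35 in WT saline, gave a depth-scaled ratio of 0.474 (95% interval 0.217 to 0.955, exact, counting error only). The count of 0 in KO saline replicate 3 allows up to 2.32 CPM with a floor of 3 counts. For KO AAV against KO saline the difference of 2.60 CPM was 1.51 CPM without KO AAV replicate 2, the highest library (exact permutation p = 0.159). Over 21 other settings its exact permutation p ran from 0.0317 to 0.183, and it was under 0.05 without KO AAV replicate 1 (0.0397) or KO AAV replicate 5 (0.0317). For KO saline against WT saline with males alone, a choice made after the data were seen, the difference of -1.52 CPM had an exact permutation p of 0.114.

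Pericytes share Cspg4, and their markers did not all lie on one side of 0. Of 11 mural markers 6 were tested in KO saline against WT saline, 4 with a positive and 2 with a negative log2 change. Pdgfrb, the pericyte receptor for platelet-derived growth factor, was at 7.37 ± 2.04 CPM in KO saline and 10.9 CPM in WT saline (log2 change -0.56, SE 0.25; edgeR adjusted p = 0.994). Notch3, a receptor of mural cells, was at 0.49 (SE 0.31). The summed mural level ran from 186 to 255 CPM in WT saline, 217 to 260 in KO saline and 226 to 262 in KO AAV, and Anpep was at 0 in 13 of 16 libraries. The part of mural cells in the Cspg4 values was not tested.

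**Figure D1:**
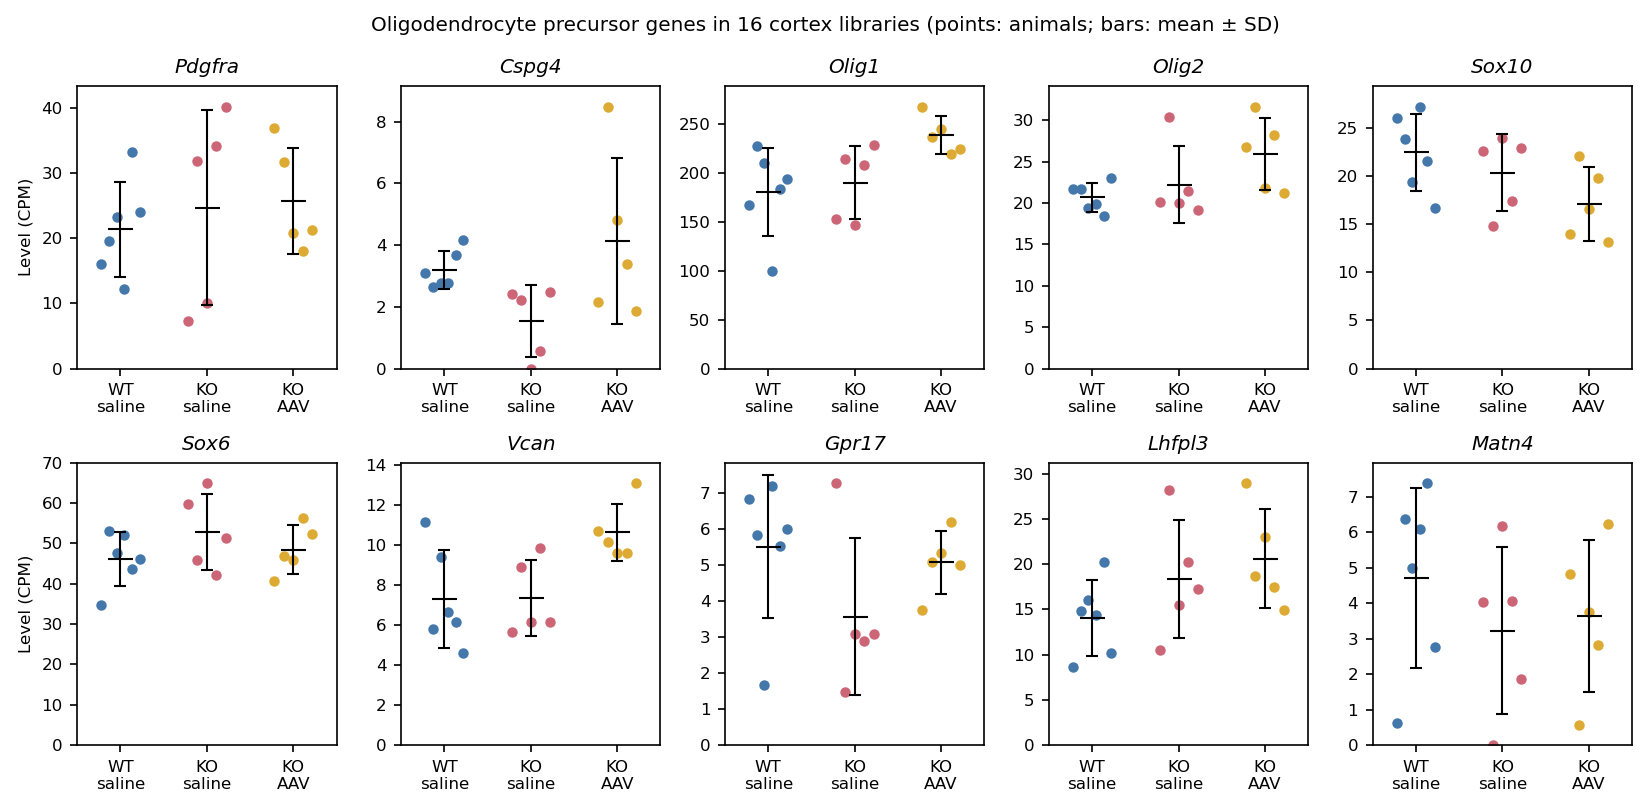
Levels of the 10 genes in CPM on linear axes from 0, with 1 point per animal and bars for the group mean ± SD (WT saline n = 6, KO saline n = 5, KO AAV n = 5). Pdgfra runs from 7.26 to 40.1 CPM within KO saline alone, and the Cspg4 points of KO saline lie below those of WT saline.

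Olig1 and Olig2, the paired basic helix-loop-helix factors of the lineage, lie 41094 bases apart on chromosome 16 (Olig1, ENSMUSG00000046160, 91269772 to 91271933; Olig2, ENSMUSG00000039830, 91225457 to 91228677), with 1 annotated gene between them. Olig1 counts were 180 to 500 per library, all in the range where the deposited values are rounded to 2 digits. In WT saline Olig1 ran from 99.7 to 228 CPM with a median of 189. KO saline replicates 1 to 5 were at 153, 215, 147, 208 and 229 CPM. The KO AAV libraries were at 268, 237, 246, 220 and 224 CPM, narrowly spread, and each was above the median of both saline groups, with 3 of the 5 above every saline library. The means were 181 ± 44.8 CPM (SD, n = 6), 190 ± 37.6 (n = 5) and 239 ± 19.1 (n = 5).

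For KO AAV against WT saline the Olig1 log2 change was 0.40 (SE 0.16; edgeR unadjusted p = 0.0208, adjusted p = 0.881). Against KO saline it was 0.33 (SE 0.17; unadjusted p = 0.0694, adjusted p = 1.00), and for KO saline against WT saline 0.08 (SE 0.16; adjusted p = 0.995). Neither KO AAV difference passed.

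Olig2, which precursors need to form at all, ran from 18.4 to 23.1 CPM in WT saline with a median of 20.8. KO saline replicates were at 20.2, 30.4, 20.1, 21.4 and 19.1 CPM, and replicate 2 stood well above the other 4. KO AAV replicates were at 26.8, 31.6, 21.9, 28.2 and 21.2 CPM, of which 3 exceeded each WT saline library. The log2 change of KO AAV against WT saline was 0.32 (SE 0.16; edgeR unadjusted p = 0.0503, adjusted p = 0.881), and against KO saline 0.23 (SE 0.17; adjusted p = 1.00). KO saline and WT saline differed by 0.10 (SE 0.16; adjusted p = 0.994).

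Sox10, the HMG-box factor that drives myelin genes and is kept through the whole lineage (ENSMUSG00000033006, chromosome 15, 79154908 to 79165240, minus strand), leaned the other way. It ran from 16.6 to 27.1 CPM in WT saline with a median of 22.7. It was at 22.6, 14.8, 23.9, 17.4 and 22.9 CPM in KO saline. KO AAV replicates were at 13.9, 22.03, 16.6, 19.7 and 13.1 CPM, each below the WT saline median, with overlap. The log2 change of KO AAV against WT saline was -0.38 (SE 0.18; edgeR unadjusted p = 0.0495, adjusted p = 0.881). Sox10 is shared with mature oligodendrocytes, whose summed marker level ran from 5133 to 7796 CPM in WT saline and from 5322 to 7954 CPM in KO AAV, with a median log2 change of -0.07 over 18 tested genes. The part of myelinating cells in the Sox10 values was not tested.

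Sox6 is a SoxD factor that holds precursors back from differentiation and is also made by cortical interneurons (ENSMUSG00000051910, chromosome 7, 115470872 to 116038796, minus strand). It stayed between 34.7 and 64.8 CPM over all 16 libraries, with means of 46.2 ± 6.65 CPM in WT saline (SD, n = 6), 52.8 ± 9.40 in KO saline (n = 5) and 48.4 ± 6.06 in KO AAV (n = 5). Its log2 changes were 0.18 (SE 0.14), -0.12 (SE 0.15) and 0.06 (SE 0.14) for untreated knockout against WT, treated against untreated knockout, and treated knockout against WT. The summed interneuron level ran from 719 to 937 CPM in WT saline, 816 to 859 in KO saline and 764 to 957 in KO AAV, and 0 of 9 tested interneuron markers passed in any comparison.

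Vcan encodes versican, a large chondroitin sulfate proteoglycan that precursors deposit around nodes and in the matrix (ENSMUSG00000021614, chromosome 13, 89655312 to 89742509, minus strand). Counts were low, 7 to 21 per library. WT saline ran from 4.62 to 11.2 CPM with a median of 6.39. KO saline replicates were at 5.65, 8.89, 6.18, 9.84 and 6.18 CPM. KO AAV replicates were at 10.7, 10.2, 9.61, 9.59 and 13.1 CPM, a tight group above all but 1 WT saline and 1 KO saline library. The mean was 10.6 ± 1.45 CPM in KO AAV (SD, n = 5), against 7.35 ± 1.89 in KO saline (n = 5) and 7.30 ± 2.47 in WT saline (n = 6). The log2 change was 0.51 (SE 0.25; edgeR unadjusted p = 0.0575, adjusted p = 1.00) against KO saline and 0.55 (SE 0.23; unadjusted p = 0.0276, adjusted p = 0.881) against WT saline.

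Matn4, the gene of a small matrix adaptor protein, matrilin-4 (ENSMUSG00000016995, chromosome 2, 164389393 to 164405160, minus strand), had 0 to 12 counts per library and was at 4.70 ± 2.54 CPM in WT saline (SD, n = 6), 3.22 ± 2.36 in KO saline (n = 5) and 3.63 ± 2.14 in KO AAV (n = 5). The 0 in KO saline replicate 2 allows up to 2.22 CPM. At this depth its log2 change of -0.55 (SE 0.54) for KO saline against WT saline was not distinguishable from 0.

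Gpr17, the orphan receptor of committed precursors (ENSMUSG00000052229, chromosome 18, 31942997 to 31949636, minus strand), had 2 to 13 counts per library. In WT saline it ran from 1.66 to 7.20 CPM with a median of 5.92. KO saline replicates were at 7.26, 1.48, 3.09, 2.89 and 3.09 CPM, where replicate 1 was the highest library of all and the other 4 were among the lowest 5. KO AAV replicates were at 3.75, 5.08, 5.34, 6.20 and 4.98 CPM. The log2 change was -0.65 (SE 0.36; edgeR unadjusted p = 0.0881, adjusted p = 0.994) for KO saline against WT saline and 0.53 (SE 0.38; adjusted p = 1.00) for KO AAV against KO saline. Leaving out 1 library at a time, the first of these ranged from -1.03 without KO saline replicate 1 (edgeR unadjusted p = 0.0126, adjusted p = 0.721) to -0.47 without KO saline replicate 2, and the other from 0.35 to 0.91. The 3' end of Gpr17 overlaps Lims2 on the opposite strand (122 counts over 16 libraries), and how the counting treated strand is not known here, so the reads of both genes may not be fully separate.

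Lhfpl3, a tetraspan membrane protein gene enriched in precursors (ENSMUSG00000106379, chromosome 5, 22746059 to 23275597), ran from 8.68 to 20.3 CPM in WT saline with a median of 14.6. KO saline replicates were at 10.5, 28.2, 15.4, 20.3 and 17.3 CPM. KO AAV replicates were at 28.9, 18.6, 23.0, 17.5 and 14.95 CPM, each above the WT saline median and 2 above its highest library. The log2 change was 0.56 (SE 0.24; edgeR unadjusted p = 0.0285, adjusted p = 0.881) for KO AAV against WT saline, 0.39 (SE 0.25; adjusted p = 0.994) for KO saline against WT saline and 0.17 (SE 0.25; adjusted p = 1.00) for KO AAV against KO saline.

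Side by side, the 3 comparisons share groups and are not independent. In KO saline against WT saline 0 of 9 tested members passed and 0 had an unadjusted p under 0.05, where edgeR called 0.0482% of all genes and 4.11% had an unadjusted p under 0.05. Of the 9, 6 had a positive log2 change, against 50.9% of all genes, with a median of 0.08 against 0.00. In KO AAV against KO saline 0 of 9 passed, and 0 had an unadjusted p under 0.05, against 0.0193% and 2.49% of all genes. There 7 were positive, against 47.6% of all genes, with a median of 0.17 against -0.01. In KO AAV against WT saline 0 of 9 passed, against 0.00965% of all genes. An unadjusted p under 0.05 was found for 4, of which Olig1, Vcan and Lhfpl3 were positive and Sox10 negative, against 4.02% of all genes, 1.66% positive and 2.36% negative. The median of the 9 was 0.27 there against -0.01 over all genes, and 6 were positive, against 49% of all genes. DESeq2 and limma-voom, fitted to the same counts and so not independent of edgeR, also called 0 members in each comparison. Groups did not overlap for 0 of the 9 tested members, against 0.27% higher and 0.125% lower of all genes in KO saline against WT saline, 0.212% and 0.289% between the knockout groups, and 0.106% and 0.212% in KO AAV against WT saline. The members had been chosen with earlier results of these libraries known, so these counts describe them and carry no separate weight.

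**Figure D2:**
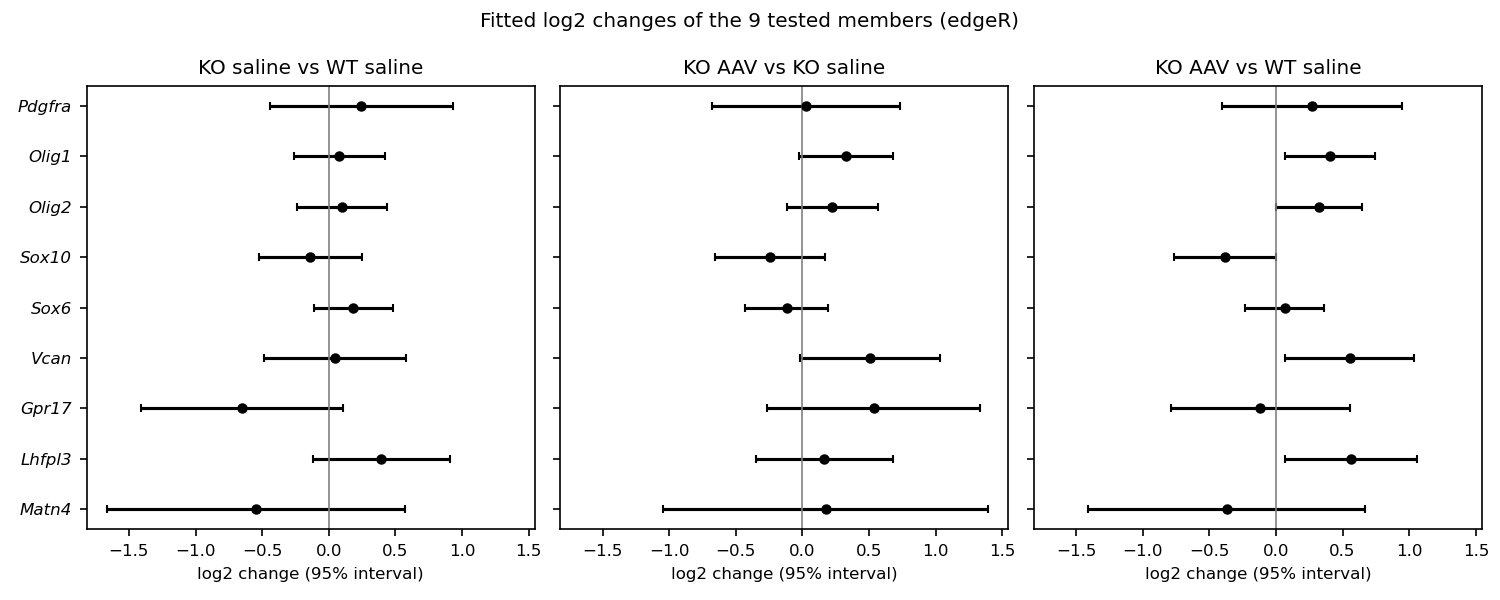
Fitted log2 changes (edgeR) of the 9 tested genes in the 3 comparisons, with 95% intervals as horizontal bars and 0 as a grey line. In KO AAV against WT saline the intervals of Olig1, Vcan and Lhfpl3 lie above 0 and that of Sox10 just below it, all before adjustment over 10363 genes.

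Other stages of the lineage were read from lists of genes outside the 10. Of 20 other precursor markers 14 were tested, and 0 passed in any comparison, with 0 at an unadjusted p under 0.05. Their median log2 change was 0.06 in KO saline against WT saline, 0.01 between the knockout groups and 0.11 in KO AAV against WT saline, with 10, 7 and 9 of 14 positive. Sox5, the SoxD partner of Sox6, was at 0.24 (SE 0.13; edgeR adjusted p = 0.881) and Xylt1, which starts chondroitin and heparan sulfate chains, at 0.35 (SE 0.23) in KO AAV against WT saline. Of 18 genes of committed and newly formed oligodendrocytes 16 were tested and 0 passed, with medians of 0.02, 0.01 and 0.02. Enpp6, an early marker of newly formed cells, was at 0.59 (SE 0.36; adjusted p = 1.00) in KO AAV against KO saline.

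The 18 myelin genes were all tested and 0 passed, with medians of -0.09, 0.05 and -0.07 and 6, 12 and 8 positive. Mog, a myelin surface protein, was at -0.38 (SE 0.19; edgeR unadjusted p = 0.0651, adjusted p = 0.994) and Trf, the transferrin gene of oligodendrocytes, at -0.35 (SE 0.20) in KO saline against WT saline. Gjb1, the oligodendrocyte connexin 32, was at 3.69 ± 1.06 CPM in KO AAV and 8.14 CPM in WT saline (log2 change -1.09, SE 0.38; unadjusted p = 0.00842, adjusted p = 0.881), and at -1.14 (SE 0.40) against KO saline.

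**Figure D3:**
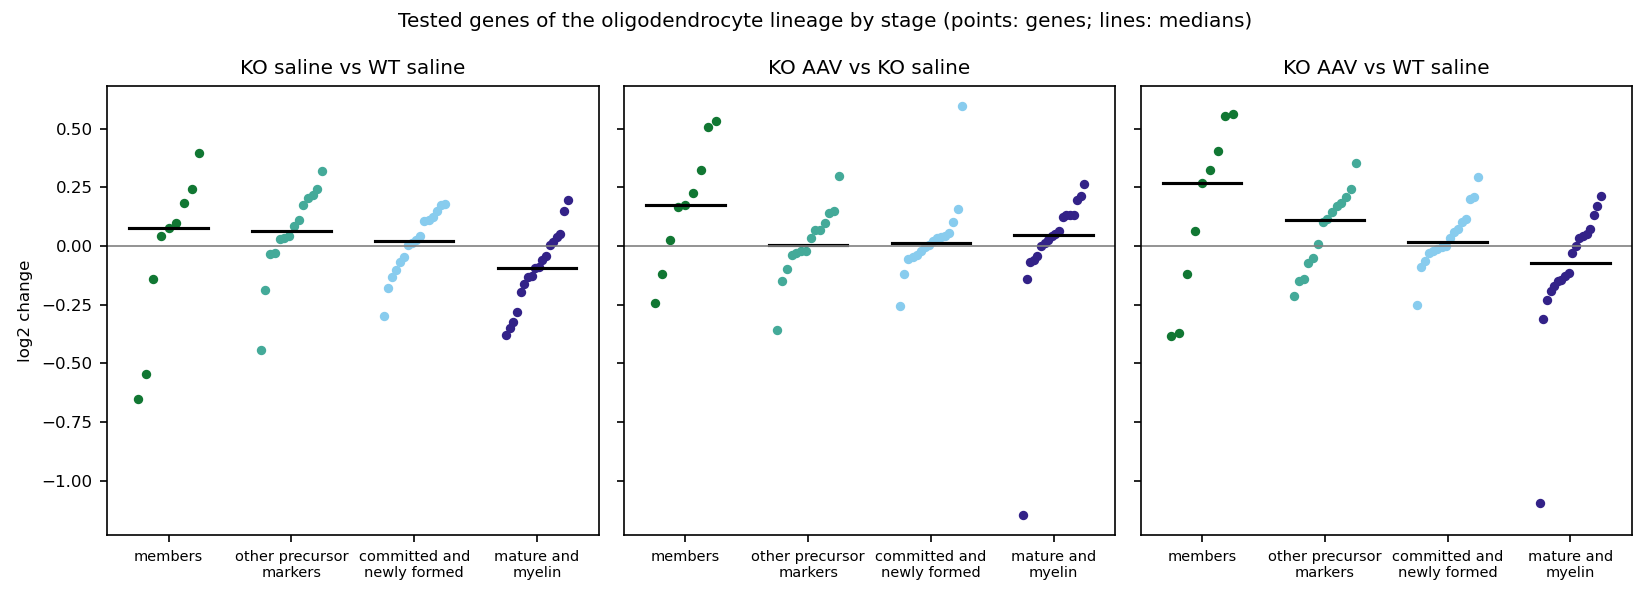
Log2 changes (edgeR) of tested genes by lineage stage, 1 point per gene and a black line at each median, for the 9 members, 14 other precursor markers, 16 genes of committed and newly formed cells and 18 myelin genes. The medians of the members are 0.08, 0.17 and 0.27 from left to right, and those of the other precursor markers 0.06, 0.01 and 0.11. Medians of the later stages lie between -0.09 and 0.05.

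The signals that act on precursors showed no call either. Of 17 genes of platelet-derived growth factor signalling 15 were tested and 0 passed, with medians of -0.04, 0.01 and -0.01 in the same order of comparisons. Of 14 genes that regulate differentiation, brakes on it among them, all were tested and 0 passed, with 11, 8 and 11 positive. Bmpr1a, a receptor for bone morphogenetic proteins, was at 0.33 (SE 0.14; edgeR unadjusted p = 0.0319, adjusted p = 0.994) in KO saline against WT saline. Id2, an inhibitor of basic helix-loop-helix factors, was at 0.22 (SE 0.11; unadjusted p = 0.0534) in KO AAV against WT saline. Of 13 matrix partners of versican 9 were tested and 0 passed, with medians of 0.03, 0.02 and 0.03. Hapln4, a link protein of perineuronal nets, was at -0.53 (SE 0.24; unadjusted p = 0.0367, adjusted p = 0.881) in KO AAV against WT saline.

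Of the listed markers of other cells, 3 passed. Gfap, an astrocyte filament gene, and Clec7a and Ctss, microglial genes, rose in KO saline against WT saline (log2 change 1.73, 3.06 and 0.64), and Gfap and Clec7a fell in KO AAV against KO saline (-1.21 and -3.02). Microglial markers had medians of 0.39, -0.37 and 0.06 over 12 tested genes, and astrocyte markers 0.13, -0.09 and 0.04 over 10. Neuronal markers had medians of -0.05, -0.08 and -0.10 over 10 genes, interneuron markers 0.03, -0.06 and -0.06 over 9, and endothelial markers 0.01, 0.07 and 0.09 over 8, with 0 called in each. Mural markers had medians of 0.21, 0.12 and 0.15 over 6 genes and fibroblast markers 0.25, -0.26 and -0.01 over 3, again with 0 called. Of 10 proliferation genes 3 were abundant enough to test and 0 passed.

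Differences between animals of the same group were compared as deviations of log2 CPM from the group mean over the 16 libraries. Among 36 pairs of the 9 tested members, 2 passed an adjusted p of 0.05 in a permutation test. The shuffles ran across groups and made no allowance for the group means removed beforehand. Permutation p values of these correlations, and of those with the mitochondrial share below, are therefore somewhat too small. A pair close to 0.05 after adjustment may not pass with that allowance, which was not tested. Pdgfra and Olig1 varied together (r = 0.72, permutation p = 0.00159, adjusted p = 0.0286; rho = 0.76, permutation p = 0.00113, adjusted p = 0.0407). Without the 2 libraries farthest out in Pdgfra, KO saline replicates 1 and 3, r was 0.67. For each sex alone, group means were removed within that sex. This sets the 1 KO saline female to 0 and makes the 2 KO AAV females mirror images. The r of the females therefore rests on few independent values. Within the 10 males r was 0.84 and within the 6 females 0.91. The pair no longer passed without KO saline replicate 1 (adjusted p = 0.107), 2 (0.0738) or 3 (0.102), or KO AAV replicate 2 (0.054) or 5 (0.0531), while r stayed between 0.68 and 0.81 without any 1 library, by permutation over the remaining 15.

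Olig2 and Matn4, whose promoters are shown above with that of Pdgfra, varied oppositely (r = -0.74, permutation p = 0.00141, adjusted p = 0.0286; rho = -0.60, permutation p = 0.0166, adjusted p = 0.0924). Without the 2 libraries farthest out in Olig2, KO saline replicate 2 and KO AAV replicate 2, r was -0.44, so that relation rests on those libraries. Matn4 had 0 and 1 counts in them. Leaving out 1 library at a time, the adjusted permutation p rose above 0.05 without KO saline replicates 1 (0.054), 2 (0.205) or 3 (0.0792) or KO AAV replicates 2 (0.0697) or 5 (0.0531), and it was 0.0661 in males alone. The neighbours Olig1 and Olig2 showed r = 0.19 (permutation p = 0.475, adjusted p = 0.590; rho = 0.18, permutation p = 0.5005). Pdgfra with Lhfpl3 (r = 0.64, permutation p = 0.00834), Gpr17 with Lhfpl3 (r = -0.64, p = 0.00648) and Pdgfra with Sox6 (r = -0.61, p = 0.0137) did not pass after adjustment (adjusted p = 0.0751, 0.0751 and 0.0967).

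Many other genes varied with Pdgfra as closely as Olig1 did. Of the other 10362 tested genes, 11.3% had r of at least 0.7 with Pdgfra and 7.67% had r of -0.7 or lower, and Olig1 ranked 1067 among them. The same shares were 7.94% and 5.90% for Olig1, and 1.80% and 0.791% for Lhfpl3. They were lowest for Olig2, at 0.0772% and 0.174%, and for Vcan, at 0.0869% and 0.125%. Pdgfra levels also moved with the mitochondrial share of each library (r = -0.75, permutation p = 6.70e-04, adjusted over 9 members 0.00603; rho = -0.73, permutation p = 0.00221, adjusted p = 0.0199). Without KO saline replicate 1 and KO AAV replicate 1, at 29.8 and 20.4% the extremes of that share, r was -0.59. Of all genes 1.77% had r of at least 0.7 in size with that share. The part of that share in the values of Pdgfra was not tested. For Olig1 r with the mitochondrial share was -0.55 (permutation p = 0.0315, adjusted p = 0.0982; rho = -0.65, permutation p = 0.00818, adjusted p = 0.0368), and -0.51 without the same libraries.

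**Figure D4:**
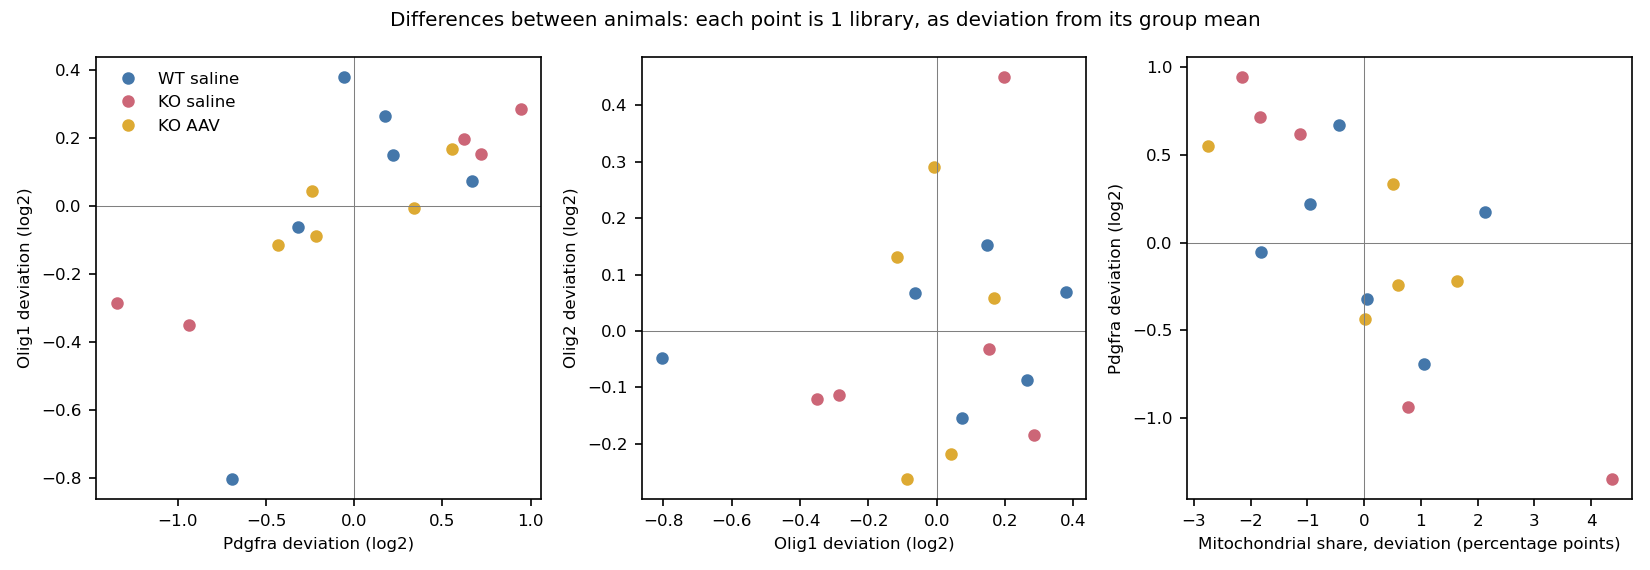
Deviations from the group mean, 1 point per library and coloured by group: Olig1 against Pdgfra (log2, r = 0.72), Olig2 against Olig1 (log2, r = 0.19), and Pdgfra (log2) against the mitochondrial share of counts (percentage points, r = -0.75). KO saline replicates 1 and 3 lie at the low end of Pdgfra.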

How the data were processed

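Per the labels, RNA came from frozen brain powder of perfused animals, and QuantSeq 3' libraries carried unique molecular identifiers. Tools named in the submitters' processing notes are STAR, edgeR 3.40.2, R 4.2, MultiQC 1.0 and FastQC 0.11.5, with build GRCm38.p6. Which program counted reads, and with what strand setting, is not known here. The authors deposited raw counts per gene with at most 2 significant digits, so values of 100 or more are rounded by at most 5%. They also deposited a signal table of CPM and, per library, a normalization factor, which is a ratio that multiplies library size. Replicates are separate animals.

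Counts were filtered with filterByExpr (10363 genes kept), scaled with TMM and fitted in edgeR 4.0.16 (R 4.3.3, limma 3.58.1, DESeq2 1.42.0, with data.table at version 1.17.8) by quasi-likelihood over all 16 libraries with group as the factor, with Benjamini-Hochberg adjustment over all tested genes, at a threshold of 0.05. The fit was tested on simulated data. Correlations used log2 CPM (prior count 2) less group means and 100000 permutations of the libraries; the low gene Cspg4 was given two-sided exact permutation tests. Positions come from GENCODE M21. The interval of the Cspg4 ratio and the floors (3 counts) cover counting error only. The 95% intervals of log2 changes use the SE of the edgeR fit, which includes variation between animals. Named genes are the 10 members, Grn, up to 2 genes of lowest p per list and comparison (1 such result is not reported here), genes that passed, and pairs that passed, with Olig1 and Olig2. Markers listed at 0, Lims2 and the next 3 pairs by size of r were named after their values were seen. The members and the 14 gene lists were chosen with earlier results of these data known. Other settings tried were RLE scaling, no mitochondrial genes, other count filters, prior count, DESeq2, limma-voom, the deposited CPM signal in limma, a block for replicate number, sex as a term, males alone, no libraries of low RNA integrity, and leaving out each library.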

Additional observations from a re-analysis of the deposited data

Results flagged for a closer look

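A sample was taken to stand apart when its gap to the nearest library, as a share of its group's range, exceeded Dixon's critical value; chance gives this in about 1 of 20 groups, and 3 of the 30 member and group sets did so. Olig2 in KO saline replicate 2 was at 30.4 CPM, where the other 4 ran from 19.1 to 21.4 CPM. Gpr17 in WT saline replicate 3 was at 1.66 CPM, against 5.53 to 7.20 CPM, and in KO saline replicate 1 at 7.26 CPM, against 1.48 to 3.09 CPM. These Gpr17 values rest on 3 and 9 counts. WT saline replicate 3 has the lower RNA integrity number of 8, and KO saline replicate 1 the highest mitochondrial share (29.8%); the part of either was not tested.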

How the results depend on the processing

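The number of members past the threshold was 0 under each of the 28 alternatives in each comparison, with the lowest adjusted p of any tested member at 0.675. Of the 27 log2 changes of tested members, 19 kept their sign under each alternative that gave them a value; Gpr17 and Matn4 fell below the count filter in some, and had 22 to 27 of the 28. The exceptions, none of them called, were Pdgfra at -0.060 with limma on the deposited CPM, Vcan at -0.064 with the replicate block, -0.020 with sex as a term, -0.012 without the libraries of RNA integrity 8 and -0.17 with males alone, and Olig1 at -0.16 with males alone, in KO saline against WT saline. Sox6 at -0.018 and Gpr17 at 0.0066 with males alone also changed sign, in KO AAV against WT saline. Leaving out each library in turn gave, in KO saline against WT saline, -0.0030 to 0.46 for Pdgfra, -0.051 to 0.15 for Olig1, -0.038 to 0.14 for Olig2 and -0.11 to 0.19 for Vcan, with 4 to 5 calls over all genes and a members' median of -0.025 to 0.13. In KO AAV against KO saline it gave -0.19 to 0.28 for Pdgfra and -0.13 to 0.52 for Matn4, with 1 to 2 calls and a median of 0.059 to 0.35. In KO AAV against WT saline it gave -0.0052 to 0.13 for Sox6, with 1 call and a median of 0.13 to 0.35, and -0.14 to 1.53 CPM for the Cspg4 difference, negative without KO AAV replicate 2. Over all genes, KO saline against WT saline gave 16 calls with no count filter, 3 with the replicate block and 2 with males alone. KO AAV against KO saline gave 4 with no filter, 1 with a mean CPM of at least 5, with the replicate block or without the libraries of RNA integrity 8, and 0 with limma on the deposited CPM or with males alone. KO AAV against WT saline gave 2 with no filter. The members' median in KO AAV against KO saline was 0.34 with limma on the deposited CPM and 0.37 with males alone. Whether replicate numbers pair the animals is not known here. Replicates 1 and 2 were males of 12.2 months in all 3 groups. Same-numbered libraries correlated from -0.43 to 0.44, over too few pairs to settle it. The main fit took no account of replicate number. The alternatives for Cspg4 and the correlations were added after the data were seen; r of Olig2 and Matn4 ranged from -0.81 to -0.59 over 22 of them and that of Pdgfra and Olig1 from 0.68 to 0.85. Depth limits Cspg4, Gpr17, Matn4 and Vcan, at 21 counts or fewer per library.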
